A study of Mus musculus with 6 samples.

Results

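The genes described here are 10 neuronal RNA-binding proteins that steer alternative splicing and the fate of messenger RNA: Rbfox1, Rbfox2, Rbfox3, Nova1, Nova2, Elavl2, Elavl3, Elavl4, Celf4 and Ptbp2. They were chosen by name, and all 10 were found among the 35976 genes of the count tables and passed the filter that left 13159 genes for testing. Counts came from bulk RNA sequencing of 3 sgEgfr and 3 sgRosa libraries, labelled as neuron libraries of the amygdala, and the mice were male C57BL/6J. Every mouse had received an adeno-associated virus that expressed Cas9 from the astrocyte promoter GfaABC1D, with guides against Egfr in the sgEgfr group and against the control locus Rosa in the sgRosa group. After more than 2 weeks, all mice of both groups had tube restraint on 7 days, fear conditioning on 1 day and extinction training on 3 days, so no unstressed library is included. The cells that carried Cas9 were astrocytes, whereas the sequenced fraction was magnetically enriched for neurons. Marker levels given below show that this fraction also held RNA of other cell types. The labels give no age and do not say whether each library came from 1 mouse, so the spread behind each p-value is that between libraries and may be technical.

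Proteins of these families bind short sequence elements in precursor and mature messenger RNA. RBFOX proteins recognise GCATG, NOVA proteins recognise clusters of CA flanked by pyrimidines, neuronal ELAV-like proteins and CELF proteins bind U-rich or GU-rich elements, and PTBP2 binds CU-rich tracts and represses many exons. Most are expressed mainly in neurons; RBFOX3 is the antigen known as NeuN, a standard marker of mature neurons, while Rbfox2 is also used by many other cell types. PTBP2 takes over from its relative PTBP1 when progenitors become neurons. The counts are sums per gene, so they give the level of each regulator and not the splicing of its targets.

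Members of 1 family have similar coding sequence, which matters for how reads are assigned to them. The coding stretches below, 90 bases each, lie within 1 exon of each gene and were chosen for the highest identity to the first gene of each set, so they show how far the paralogues differ where they are most alike. They were read from the GENCODE transcripts of GRCm38, the assembly that mm10 names, and capitals mark bases that differ from the first gene of each set. For the neuronal ELAV-like genes the stretches lie at chr4:110206416-110206505 (minus strand) in Elavl4, at chr4:91253324-91253413 (minus strand) in Elavl2 and at chr9:22018587-22018676 (minus strand) in Elavl3.
Elavl4: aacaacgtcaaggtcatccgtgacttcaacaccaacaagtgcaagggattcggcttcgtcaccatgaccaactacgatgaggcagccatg
Elavl2: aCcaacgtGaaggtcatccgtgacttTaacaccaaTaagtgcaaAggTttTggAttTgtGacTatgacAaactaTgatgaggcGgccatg
Elavl3: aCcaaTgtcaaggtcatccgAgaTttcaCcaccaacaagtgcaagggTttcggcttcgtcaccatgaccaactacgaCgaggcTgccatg
For the RBFOX genes they lie at chr11:118502842-118502931 (minus strand) in Rbfox3, at chr16:7292188-7292277 (plus strand) in Rbfox1 and at chr15:77105577-77105666 (minus strand) in Rbfox2.
Rbfox3: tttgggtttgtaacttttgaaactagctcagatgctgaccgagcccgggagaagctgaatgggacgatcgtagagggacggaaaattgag
Rbfox1: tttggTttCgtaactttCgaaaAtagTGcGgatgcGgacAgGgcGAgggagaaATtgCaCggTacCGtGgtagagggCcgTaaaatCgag
Rbfox2: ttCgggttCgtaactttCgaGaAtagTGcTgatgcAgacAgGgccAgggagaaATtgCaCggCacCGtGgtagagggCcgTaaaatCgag
For the NOVA genes they lie at chr12:46700839-46700928 (minus strand) in Nova1 and at chr7:18957581-18957670 (plus strand) in Nova2.
Nova1: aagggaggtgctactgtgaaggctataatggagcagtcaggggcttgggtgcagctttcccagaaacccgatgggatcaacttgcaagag
Nova2: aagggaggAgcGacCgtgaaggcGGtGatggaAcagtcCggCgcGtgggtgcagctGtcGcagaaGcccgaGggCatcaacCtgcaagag

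Against the Elavl4 stretch, that of Elavl2 differed at 14 of 90 bases and that of Elavl3 at 8. Against the Rbfox3 stretch, those of Rbfox1 and Rbfox2 each differed at 23 bases, and against Nova1 that of Nova2 differed at 16. Over whole principal transcripts the longest identical run within these 3 families was 29 bases, found between Elavl4 and Elavl3 and between Rbfox1 and Rbfox2. No run of 50 bases in any of the 10 transcripts was shared with another of the 10. Elavl3 was the gene with the most sequence in common with genes outside the 10: 217 of its 4965 runs of 50 bases (4.37%) also occurred in transcripts of other genes. For Nova2 this was so of 18 of 8323 runs, and for the other 8 genes of 0. Only the principal transcript of each gene was searched, which for Rbfox1 has 1407 bases against 4400 annotated exonic bases. The read length and the handling of multiply mapped reads are not given in the sources used here. On the same strand, exons of Elavl3 overlap those of the predicted gene Gm49318 over 256 of 6890 exonic bases. Exons of Nova1 overlap those of the predicted gene Gm33869 on the same strand over 310 of 8747. Exons of Nova2 overlap those of the predicted gene Gm26821 on the opposite strand over 2652 of 8372 exonic bases, 31.7% of the total. The strand setting of the counting is not given, so whether reads in that stretch were separated by strand is not known.

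Levels are given as TMM-scaled CPM, the count of a gene relative to the scaled library total. Total counts ranged from 2520426 to 4849404 in sgEgfr libraries and from 2348897 to 10152812 in sgRosa libraries, and 3 counts in 1 library, the floor used here, correspond to between 0.640 and 1.17 CPM in sgEgfr and between 0.270 and 1.25 CPM in sgRosa libraries. Egfr, the targeted gene, had 6, 18 and 6 counts in sgEgfr and 1, 26 and 23 counts in sgRosa libraries, which does not check editing in astrocytes. All 16 pan-neuronal markers were detected in every library, and their summed level was 3153 to 5642 CPM in sgEgfr and 2102 to 5928 CPM in sgRosa libraries. Replicate 3 of sgRosa stood apart from the other sgRosa libraries: in sgRosa replicates 1 and 2 the sum was 2274 and 2102 CPM, below every sgEgfr library, whereas sgRosa replicate 3 had the highest sum of all 6. The 10 oligodendrocyte markers ran the other way, at 22648 to 57947 CPM in sgEgfr and 72656, 65733 and 24623 CPM in sgRosa replicates 1, 2 and 3, with none at 0. In every library the oligodendrocyte sum was above the pan-neuronal sum, so the RNA was not from neurons alone. The 10 astrocyte markers summed to 481 to 1744 CPM in sgEgfr and 878 to 1693 CPM in sgRosa libraries. The 8 excitatory neuron markers summed to 1675 to 2665 CPM in sgEgfr and 911 to 3019 CPM in sgRosa libraries. All 8 log2 fold changes were positive (median 0.84), as were 46.3% of those of all tested genes. The inhibitory neuron markers summed to 63.8 to 114 CPM in sgEgfr and 103 to 266 CPM in sgRosa libraries. All 8 tested of 10 listed had negative log2 fold changes (median -1.005). By edgeR 3 had an unadjusted p under 0.05, all lower, against 2.93% of all tested genes in that direction. Groups did not overlap for 2 of the inhibitory markers, both lower in sgEgfr, against 7.6% of all tested genes in that direction. At an adjusted p under 0.05, edgeR called 0 and DESeq2 called 1, against 0% and 0.251% of all tested genes. The 10 microglia markers summed to 38.2 to 531 CPM in sgEgfr and 72.8 to 183 CPM in sgRosa libraries, and all 9 tested were positive (median 1.37). The 7 choroid plexus markers reached 2462 CPM in sgEgfr replicate 1 and 3626 CPM in sgRosa replicate 3, against at most 53.3 CPM elsewhere, and 2 of the 7 were at 0 in at least 1 library. The part of these markers in the results was not tested, other than by the pan-neuronal values given with them. In bulk samples, fewer neurons and less RNA of a gene per neuron cannot be told apart.

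Gene level was compared on CPM per kilobase of annotated exon, averaged over all 6 libraries and given with the SD over them. Celf4, which encodes a neuronal CELF protein that controls messenger RNA stability and translation, stood first at 151 ± 51.2 CPM per kb. Elavl3 followed at 69.8 ± 6.19, Rbfox1 at 49.1 ± 22.5, Rbfox3 at 44.1 ± 20.2, Rbfox2 at 15.96 ± 5.06 and Elavl4 at 9.22 ± 4.99 CPM per kb. The lowest were Ptbp2 at 5.75 ± 1.52, Nova2 at 5.72 ± 2.33, Elavl2 at 5.06 ± 2.21 and Nova1 at 2.89 ± 0.730 CPM per kb. Celf4 exceeded Elavl3, Rbfox3 exceeded Rbfox2 and Rbfox2 exceeded Elavl4 in 6 of 6 libraries and by more than the larger SD. Elavl3 and Rbfox1 differed by less than the larger SD, with Elavl3 the higher in 4 of 6 libraries. So did Rbfox1 and Rbfox3 and all neighbours from Elavl4 down to Nova1. Even so, Rbfox1, Elavl4 and Elavl2 exceeded the next gene in 5 of 6 libraries, Nova2 in 4 and Ptbp2 in 3. The SD over libraries includes variation that both genes share, so this comparison does not use the pairing within libraries. The exon lengths join all annotated isoforms, so levels per kilobase are too low for genes whose longest isoforms are not used.

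**Figure D1:**
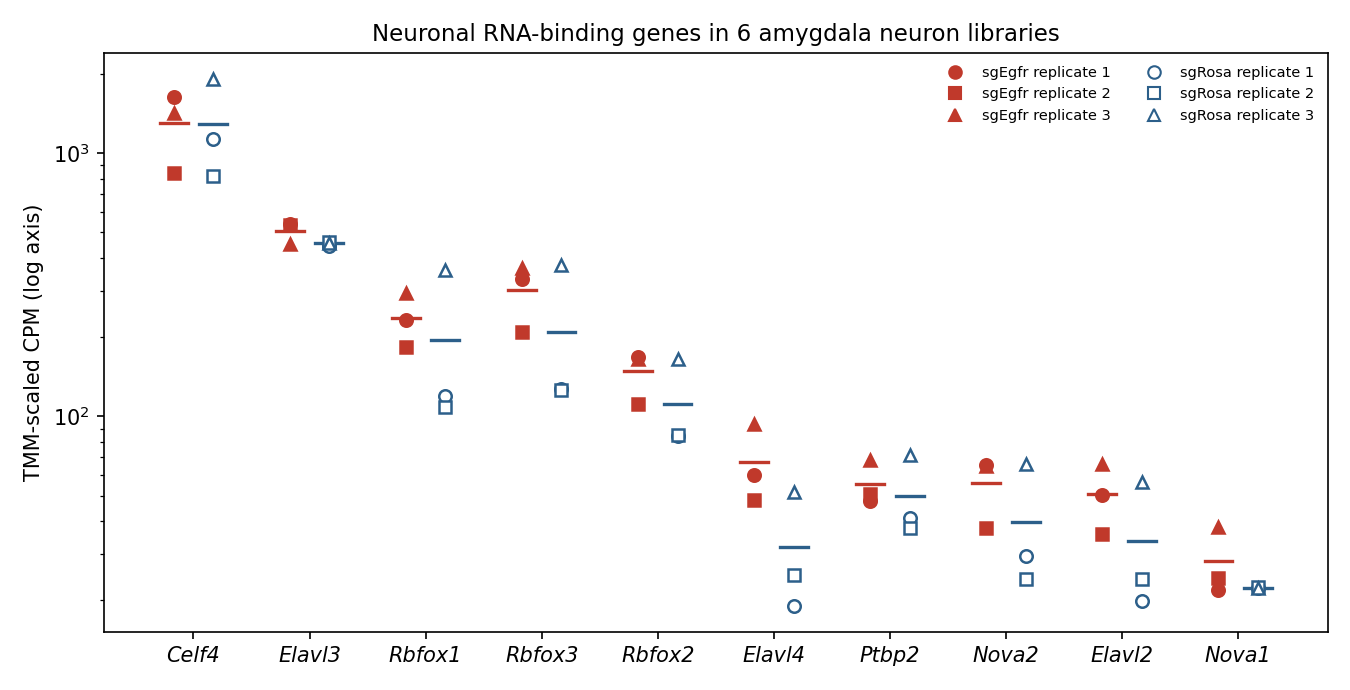
TMM-scaled CPM (log axis) of the 10 genes, ordered by their level per kilobase of exon; filled red symbols are sgEgfr libraries and open blue symbols sgRosa libraries, symbol shapes give the replicate number, and horizontal bars are group means (n = 3 each). For 8 of the genes sgRosa replicate 3 lies well above the other sgRosa libraries, while Elavl3 and Nova1 are close together in all sgRosa libraries.

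None of the 10 regulators passed the threshold between sgEgfr and sgRosa (adjusted p under 0.05) in the quasi-likelihood test of edgeR, adjusted by Benjamini-Hochberg over all 13159 genes, where 0% of all genes passed. DESeq2 and limma-voom also called 0 of the 10, against 0.251% and 0% of all tested genes. At an unadjusted p under 0.05 there was 1 of the 10, Elavl4, higher in sgEgfr, against 3.23% of all genes in that direction, 2.93% in the other and 6.16% in either. All 10 log2 fold changes were positive, as were 46.3% of those of all tested genes. Their median was 0.37, beside -0.04 for all tested genes. The 16 pan-neuronal markers had a median of 0.29, and 15 of them were positive. In none of the 10 did the 3 sgEgfr libraries all lie above or all below the 3 sgRosa libraries, a separation that 5.8% of all genes showed upward and 7.6% downward.

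The 3 neuronal ELAV-like proteins stabilise U-rich messenger RNAs and promote neuronal splicing. Elavl4, also called HuD, was at 59.9, 48.2 and 93.9 CPM in sgEgfr replicates 1, 2 and 3 and at 19.1, 25.1 and 51.8 CPM in sgRosa replicates 1, 2 and 3. The groups overlapped through a single pair of libraries, sgEgfr replicate 2 and sgRosa replicate 3. Its log2 fold change was 1.06 (SE 0.42), a 2.08-fold difference, with an adjusted p of 0.781 by edgeR, 0.534 by DESeq2 and 0.253 by limma-voom. Over all alternatives the adjusted p ranged from 0.117 to 0.999, so the largest difference among the 10 was not beyond the spread between libraries once all genes were considered. Without sgRosa replicate 3 the log2 fold change was 1.61 (edgeR adjusted p = 0.117), and without other single libraries it lay between 0.79 and 1.30.

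Elavl2, or HuB, had 50.1, 35.7 and 65.9 CPM in sgEgfr and 19.97, 24.2 and 56.3 CPM in sgRosa libraries. The pattern resembled that of Elavl4, with sgRosa replicates 1 and 2 the lowest and sgRosa replicate 3 inside the sgEgfr range. Its log2 fold change was 0.58 (SE 0.43, edgeR adjusted p = 0.817), and omitting sgRosa replicate 3 gave 1.19, sgRosa replicate 1 gave 0.34 and sgEgfr replicate 3 gave 0.39. Elavl3, or HuC, had 537, 533 and 451 CPM in sgEgfr and 444, 462 and 458 CPM in sgRosa libraries. It was the steadiest of the 10 genes, with a 1.21-fold range over the 6 libraries against 4.91-fold for Elavl4, and its log2 fold change was 0.16 (SE 0.25, edgeR adjusted p = 0.914), or 0.26 without sgEgfr replicate 3.

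Upstream sequence is shown for the steadiest and the most variable of these paralogues, as reference for their separate promoters. The 250 bases before the most upstream RefSeq start (GRCm38.p6) lie at chr9:22052024-22052273 (minus strand) for Elavl3 and at chr4:110351912-110352161 (minus strand) for Elavl4. Capitals mark matches on either strand to the GC box motif GGGCGG, to the CCAAT box, to the TATA box motif TATAAA, to the left part CAGCACC or the right part GGACAG of the REST site, or to the cAMP response element TGACGTCA. No match overlapped another.
Elavl3: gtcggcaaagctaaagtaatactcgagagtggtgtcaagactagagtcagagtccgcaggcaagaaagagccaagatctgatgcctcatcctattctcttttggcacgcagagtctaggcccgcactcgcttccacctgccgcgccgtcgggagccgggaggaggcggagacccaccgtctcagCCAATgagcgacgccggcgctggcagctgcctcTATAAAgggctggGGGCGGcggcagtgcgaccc
Elavl4: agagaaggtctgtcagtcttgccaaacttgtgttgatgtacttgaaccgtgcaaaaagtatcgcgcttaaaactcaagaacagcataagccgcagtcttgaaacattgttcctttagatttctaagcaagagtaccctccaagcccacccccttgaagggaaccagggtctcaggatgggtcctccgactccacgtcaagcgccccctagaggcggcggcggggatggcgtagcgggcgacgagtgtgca
The Elavl3 window held 1 GC box, 1 CCAAT box and 1 TATA box, which 32.7%, 33.8% and 12.4% of 32817 promoter windows of this length also hold, and had a GC content of 61.6%. The Elavl4 window held no match to these motifs and had a GC content of 53.6%. Elavl4 has 3 further annotated starts, whose windows each held at least 1 CCAAT match, and the counts do not say which start was used. RefSeq windows were examined for 8 of the 10 genes, with Celf4 left out of this step.

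The RBFOX genes had a like order of libraries. Rbfox3 had 332, 209 and 368 CPM in sgEgfr and 127, 127 and 378 CPM in sgRosa libraries. Rbfox1, a regulator of synaptic and ion channel transcripts, had 232, 184 and 293 CPM in sgEgfr and 119.5, 108 and 361 CPM in sgRosa libraries. For both genes sgRosa replicate 3 was the highest of the 6 libraries and sgRosa replicates 1 and 2 the lowest. Rbfox2 had 169, 111 and 165 CPM in sgEgfr and 84.1, 84.8 and 165 CPM in sgRosa libraries, with sgRosa replicate 3 inside the sgEgfr range.

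The log2 fold changes of Rbfox3, Rbfox1 and Rbfox2 were 0.52 (SE 0.48), 0.27 (SE 0.48) and 0.41 (SE 0.34), with edgeR adjusted p of 0.846, 0.926 and 0.832. None passed the threshold. Without sgRosa replicate 3 the same log2 fold changes were 1.25, 1.05 and 0.81, with edgeR adjusted p of 0.122, 0.129 and 0.161. Without sgRosa replicate 1 they were 0.29, 0.04 and 0.27, and without sgRosa replicate 2 they were 0.32, 0.03 and 0.29. Leaving out sgEgfr replicate 3 gave 0.13 for Rbfox1, and leaving out sgEgfr replicate 2 gave 0.47 for Rbfox1 and 0.62 for Rbfox2. Within libraries, Rbfox1 stood 0.34 ± 0.17 log2 units below Rbfox3 in sgEgfr and 0.13 ± 0.09 below it in sgRosa (SD, n = 3 each; CPM not corrected for length, per kilobase of exon Rbfox1 was the higher in 5 of 6 libraries).

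The NOVA genes, KH-domain splicing factors of inhibitory synapse and axon guidance transcripts, had unlike values across the libraries. Nova2, the cortical paralogue, had 65.3, 37.7 and 64.7 CPM in sgEgfr and 29.5, 24.2 and 65.7 CPM in sgRosa libraries, with sgRosa replicate 3 the highest. Its log2 fold change was 0.48 (SE 0.41, edgeR adjusted p = 0.840). Omitting sgRosa replicate 3 gave 1.05 and sgEgfr replicate 2 gave 0.74, whereas omitting sgRosa replicate 2 gave 0.27 and sgRosa replicate 1 gave 0.32. Nova1, the hindbrain and spinal cord paralogue, had 22.0, 24.3 and 38.2 CPM in sgEgfr and 22.2, 22.6 and 22.3 CPM in sgRosa libraries. Only sgEgfr replicate 3 stood apart, and without it the log2 fold change of Nova1 was 0.07, against 0.33 (SE 0.26, edgeR adjusted p = 0.830) with all 6 libraries. The 3 sgRosa libraries had an SD of 0.173 CPM, from 79, 54 and 248 counts in replicates 1, 2 and 3. Counting error at such counts is larger than this SD, so the closeness does not show that Nova1 was steady. The summed pan-neuronal levels of these libraries ranged from 2102 to 5928 CPM.

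Celf4 had 1639, 841 and 1417 CPM in sgEgfr and 1134, 822 and 1909 CPM in sgRosa libraries. The groups covered the same range, and the log2 fold change was 0.01 (SE 0.42, edgeR adjusted p = 0.997). Its sign depended on single libraries: leaving out sgEgfr replicate 1 gave -0.19, sgEgfr replicate 2 gave 0.28, sgEgfr replicate 3 gave -0.02, sgRosa replicate 1 gave -0.04, sgRosa replicate 2 gave -0.19 and sgRosa replicate 3 gave 0.40. Ptbp2 had 47.8, 50.9 and 68.2 CPM in sgEgfr and 41.1, 37.6 and 71.2 CPM in sgRosa libraries, with sgRosa replicate 3 the highest. Its log2 fold change was 0.15 (SE 0.30, edgeR adjusted p = 0.937). Leaving out sgRosa replicate 3 gave 0.49, sgRosa replicate 1 gave 0.05, sgRosa replicate 2 gave 0.02 and sgEgfr replicate 3 gave 0.01. Omitting sgEgfr replicate 1 gave 0.25 and omitting sgEgfr replicate 2 gave 0.24. Ptbp1, the relative that neurons switch off, had 19.8, 24.1 and 19.5 CPM in sgEgfr and 20.5, 34.7 and 17.5 CPM in sgRosa libraries. Its log2 fold change was -0.18 (SE 0.30, edgeR adjusted p = 0.921) and 0.18 without sgRosa replicate 2. Ptbp2 was above Ptbp1 in all 6 libraries, by 1.37 ± 0.37 log2 units in sgEgfr and 1.03 ± 0.94 in sgRosa (SD, n = 3 each; CPM not corrected for length).

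**Figure D2:**
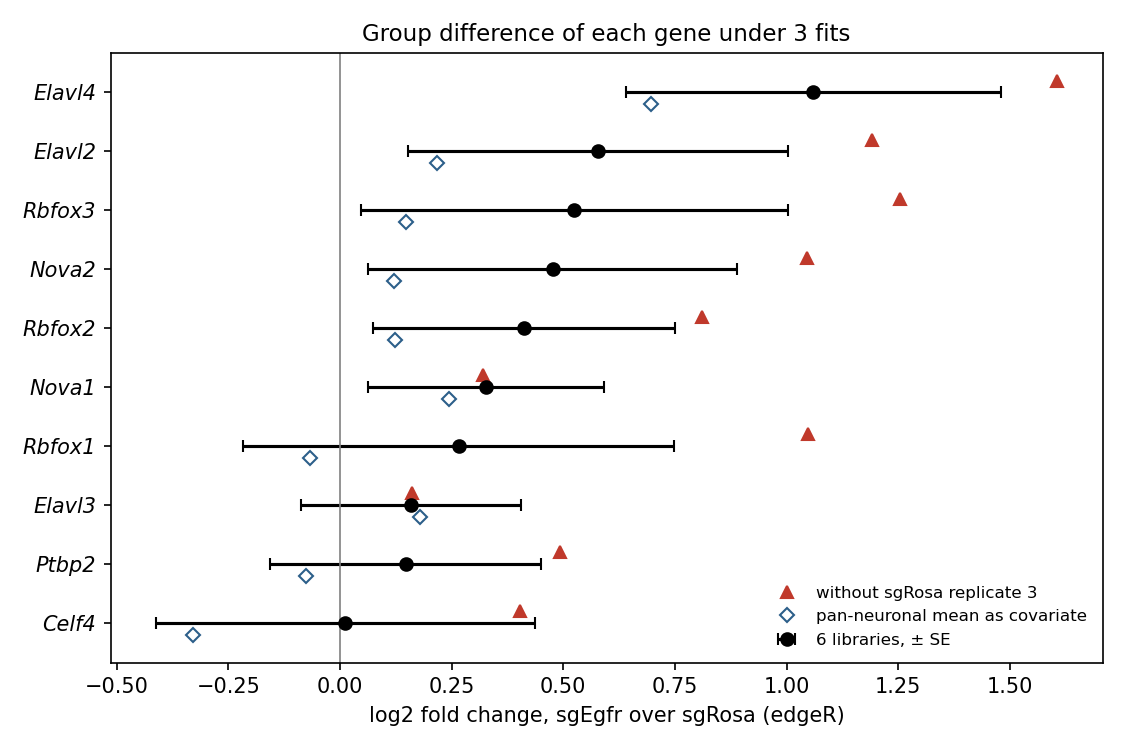
Log2 fold change of sgEgfr over sgRosa for each gene by edgeR: black points with bars of 1 SE are from all 6 libraries, red triangles are without sgRosa replicate 3, and open blue diamonds are with each library's pan-neuronal mean as a covariate. The values without sgRosa replicate 3 lie to the right for 8 genes, Nova1 and Elavl3 stay near their 6-library values, and Celf4, Rbfox1 and Ptbp2 turn negative with the covariate.

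Leaving out sgRosa replicate 3 raised the median log2 fold change of the 10 genes to 0.93, beside -0.02 for all genes. The median of the 16 pan-neuronal markers was likewise higher in that fit, at 0.87, so the rise was not particular to the 10 genes. The groups then did not overlap for 7 of the 10 genes (Rbfox1, Rbfox2, Rbfox3, Nova2, Elavl2, Elavl4 and Ptbp2), all higher in sgEgfr, against 20.7% of the 13447 genes tested there. None of the 10 passed the adjusted threshold in that fit, where 0% of all genes passed. Leaving out sgRosa replicate 3 together with sgEgfr replicate 1, the libraries with choroid plexus RNA and a choice made after the data were seen, gave 8 such genes against 24.7% of all genes. Without sgEgfr replicate 2 there were 3 such genes (Rbfox2, Nova2 and Elavl4) against 10.6%. Leaving out sgEgfr replicate 1 gave 1 gene (Nova1) against 8.48% of all genes, and leaving out sgEgfr replicate 3 gave 1 (Elavl3) against 9.75%. Omitting sgRosa replicate 2 gave 1 (Elavl3) against 11.4%, and omitting sgRosa replicate 1 gave 0 against 9.92%. With a stricter filter on low counts and all 6 libraries there was 1 (Elavl4) against 6.98%.

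The regulators were next set against the pan-neuronal level of each library, taken as the mean log2 CPM of the 16 pan-neuronal genes, of which none belongs to the 10. The mean log2 CPM of the 10 genes was 7.11, 6.72 and 7.34 in sgEgfr and 6.27, 6.24 and 7.24 in sgRosa libraries. The pan-neuronal mean was 7.31, 6.82 and 7.56 in sgEgfr and 6.41, 6.38 and 7.61 in sgRosa libraries. Their within-library difference averaged -0.18 ± 0.06 in sgEgfr and -0.22 ± 0.13 in sgRosa (SD, n = 3 each), so the group difference of 0.47 in the mean of the 10 genes became 0.04 relative to pan-neuronal genes. In the edgeR fit with the pan-neuronal mean as a covariate, the median log2 fold change of the 10 genes was 0.14, beside -0.04 for all genes. Rbfox1, Celf4 and Ptbp2 had negative values there, of -0.07, -0.33 and -0.08.

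Relative to the pan-neuronal mean of the same library, Elavl4 was at -1.40, -1.22 and -1.001 log2 units in sgEgfr and at -2.13, -1.71 and -1.90 in sgRosa libraries. Every sgEgfr library was above every sgRosa library, and the group means differed by 0.71. Elavl2 was at -1.65, -1.64 and -1.51 in sgEgfr and at -2.06, -1.76 and -1.78 in sgRosa libraries, again without overlap, with a difference of 0.26. Elavl4 and Elavl2 were the 2 of 10 genes separated upward on this scale, as 1.02% of all tested genes were, and 0 of 10 were separated downward, against 4.11%. Without the subtraction those shares were 5.8% and 7.6%. The pan-neuronal mean was 0.43 higher in sgEgfr and varied between libraries, so subtracting it shifts and spreads genes that do not follow it. The share over all genes is therefore not a like baseline for neuronal genes. With overlap, the group difference was 0.26 for Rbfox3, 0.15 for Nova2, 0.04 for Rbfox1 and 0.03 for Rbfox2. It was negative for Celf4 (-0.39), Elavl3 (-0.28), Ptbp2 (-0.23) and Nova1 (-0.15), so the small difference in the mean of the 10 genes joins opposite signs. This scale was looked at gene by gene after the values were seen. The edgeR fit with the covariate gave Elavl4 an adjusted p of 0.372 at a log2 fold change of 0.70. For Elavl2 that fit gave an adjusted p of 0.673 at 0.22. Its median log2 fold change was 0.52 for the excitatory and -0.61 for the inhibitory neuron markers. Any part of neuron type in the Elavl4 and Elavl2 values was not tested.

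**Figure D3:**
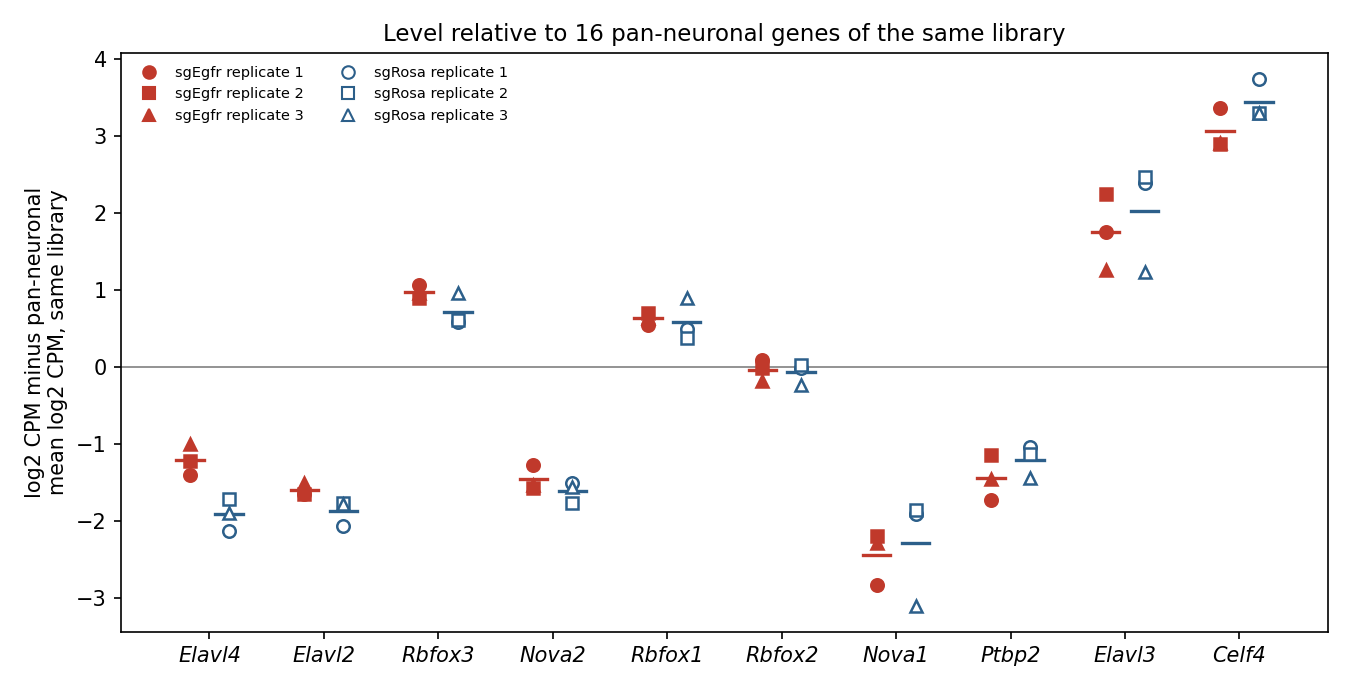
Log2 CPM of each gene minus the average of the 16 pan-neuronal genes in the same library (0 is the pan-neuronal mean); filled red symbols are sgEgfr and open blue symbols sgRosa libraries, shapes give the replicate number and bars the group means (n = 3 each). Elavl4 and Elavl2 are the only genes shown whose groups do not overlap.

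Within families, 6 differences between paralogues were compared between groups by an exact two-sided permutation test over libraries, which cannot give a p below 0.10 with 3 libraries against 3. Elavl4 minus Elavl3 was -2.96 ± 0.62 log2 units in sgEgfr and -3.94 ± 0.72 in sgRosa (SD, n = 3 each), a group difference of 0.98 (exact p = 0.3). Elavl2 minus Elavl3 was -3.35 ± 0.56 in sgEgfr and -3.90 ± 0.77 in sgRosa, a group difference of 0.54 (exact p = 0.4). Rbfox1 minus Rbfox3, Rbfox2 minus Rbfox3 and Nova1 minus Nova2 differed between groups by -0.22, -0.23 and -0.30 (exact p = 0.2, 0.4 and 0.5). Single libraries moved these differences: Nova1 minus Nova2 was -0.72 without sgRosa replicate 3, and leaving out sgEgfr replicate 1 gave -0.0073, sgEgfr replicate 2 gave -0.47, sgRosa replicate 1 gave -0.16 and sgRosa replicate 2 gave -0.0050. Rbfox2 minus Rbfox3 lay between -0.12 and -0.43, and Rbfox1 minus Rbfox3 between -0.13 and -0.30. For Elavl4 minus Elavl3 the range was 0.63 to 1.39 and for Elavl2 minus Elavl3 it was 0.25 to 0.98. Ptbp2 minus Ptbp1 differed by 0.33 (exact p = 0.6) and by -0.13 without sgRosa replicate 2. Adjusted over the 6 pairs, all 6 exact p were 0.6, and every pair overlapped between groups.

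The genes whose pattern was most like that of the 10 were picked by Pearson's r over the 6 libraries with the mean of their standardised log2 CPM, among 7537 other genes with a mean log2 CPM of at least 4. The 5 highest were Vsnl1, Cabp1, B4galt6, Nipsnap1 and Ankrd34a, whose r lay between 0.996 and 0.997. Vsnl1, which encodes the neuronal calcium sensor visinin-like 1, had 229, 155 and 277 CPM in sgEgfr and 74.5, 73.1 and 247 CPM in sgRosa libraries. The points are libraries that share depth and cell makeup, and the r values are a description. Among the 10 themselves, the r of each gene with the mean of the other 9 lay between 0.854 and 0.992 for 7 of them, and was 0.69 for Celf4, 0.40 for Nova1 and 0.10 for Elavl3.

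The genes also share large size. All 10 span more than the median of 26.4 kb of the 12581 tested genes with an annotated length, from 37.0 kb for Elavl3 to 1526 kb for Rbfox1, and 9 of 10 have more exonic sequence than the median of 4.65 kb. In 3′ untranslated regions of principal transcripts, at least 1 TGCATG (the RBFOX element, read on the transcript strand) was found in 6 of 9 of these genes, with 6 in Nova1, 3 in Nova2 and 2 in Rbfox3. Of all tested genes with such a region, 35.9% held one, but their median length was 1137 bases against 1439 to 6701 bases in the 9 genes. On GRCm38, Elavl4 lies on chromosome 4 (110203722 to 110351909), as does Elavl2 (91250763 to 91400785), Rbfox3 on chromosome 11 (118489762 to 118911597), Rbfox1 on chromosome 16 (5885355 to 7411526) and Rbfox2 on chromosome 15 (77078990 to 77307004). Elavl3 lies on chromosome 9 (22015005 to 22052023), Nova1 on chromosome 12 (46694517 to 46818929), Nova2 on chromosome 7 (18925888 to 18965319) and Ptbp2 on chromosome 3 (119718742 to 119784466).

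Wider groups of RNA-binding genes were taken from lists, and by edgeR 0 of their members passed over all genes, as did 0 by DESeq2. Among 8 family relatives 7 had positive log2 fold changes (median 0.42), as did 46.3% of all tested genes. At an unadjusted p under 0.05 there were 2, both higher in sgEgfr, against 3.23% of all genes in that direction. Groups did not overlap for 2 relatives, both higher, against 5.8% of all genes upward and 7.6% downward. Ptbp3, the PTB paralogue of blood and other cells, had 78.5, 86.8 and 69.7 CPM in sgEgfr and 53.4, 56.8 and 36.7 CPM in sgRosa libraries, without overlap (log2 fold change 0.68, SE 0.24, edgeR adjusted p = 0.781). Celf5, a neuronal CELF gene, had 119, 70.3 and 119.6 CPM in sgEgfr and 39.1, 45.9 and 85.3 CPM in sgRosa libraries (0.85, SE 0.36, edgeR adjusted p = 0.781).

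Other splicing regulators were positive in 10 of 15 tested of 16 listed (median 0.13). At an unadjusted p under 0.05 there were 0, against 6.16% of all genes in either direction. Groups did not overlap for 1, higher in sgEgfr, against 5.8% of all genes in that direction. For the musashi gene Msi2 the log2 value was 0.64 (adjusted p = 0.800 by edgeR). Mbnl1, the muscleblind gene, had 1226, 1222 and 1241 CPM in sgEgfr and 583, 1183 and 77.4 CPM in sgRosa libraries, without overlap. The sgEgfr libraries agreed closely while the sgRosa libraries spread between 77.4 and 1183 CPM, and the log2 fold change was 1.00 (SE 0.77, edgeR adjusted p = 0.821).

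The hnRNP genes, which encode abundant nuclear RNA-binding proteins of all cell types, were positive in 10 of 17 (median 0.06). Groups did not overlap for 2 higher and 1 lower in sgEgfr, against 5.8% and 7.6% of all genes. At an unadjusted p under 0.05 there was 1, higher in sgEgfr, against 3.23% of all genes in that direction. That was Hnrnpl, at 81.5, 88.8 and 79.9 CPM in sgEgfr and 43.0, 61.0 and 53.8 CPM in sgRosa libraries, without overlap (log2 fold change 0.67, SE 0.22, edgeR adjusted p = 0.781). Hnrnpd had 0.44 (edgeR adjusted p = 0.781). The SR and Tra2 genes, many of which promote exon inclusion, were positive in 8 of 13 (median 0.07). At an unadjusted p under 0.05 there were 0, against 6.16% of all genes in either direction. Groups did not overlap for 3 higher and 1 lower in sgEgfr, against 5.8% and 7.6% of all genes. The smallest p among the SR and Tra2 genes belonged to Srsf5 at -0.57 and Srsf7 at -0.52 (edgeR adjusted p = 0.787 and 0.790).

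Transcripts known as targets of these regulators in the brain were positive in 12 of 13 tested of 14 listed (median 0.16). At an unadjusted p under 0.05 there were 0, against 6.16% of all genes in either direction. Groups did not overlap for 0 of them, against 5.8% of all genes upward and 7.6% downward. The sodium channel gene Scn8a, a Celf4 target, had a log2 fold change of 0.51 (SE 0.55, edgeR adjusted p = 0.873). It had 122, 73.9 and 147 CPM in sgEgfr and 43.0, 40.1 and 156 CPM in sgRosa libraries, with sgRosa replicate 3 again the highest. With the pan-neuronal covariate the median of these targets was -0.08.

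**Figure D4:**
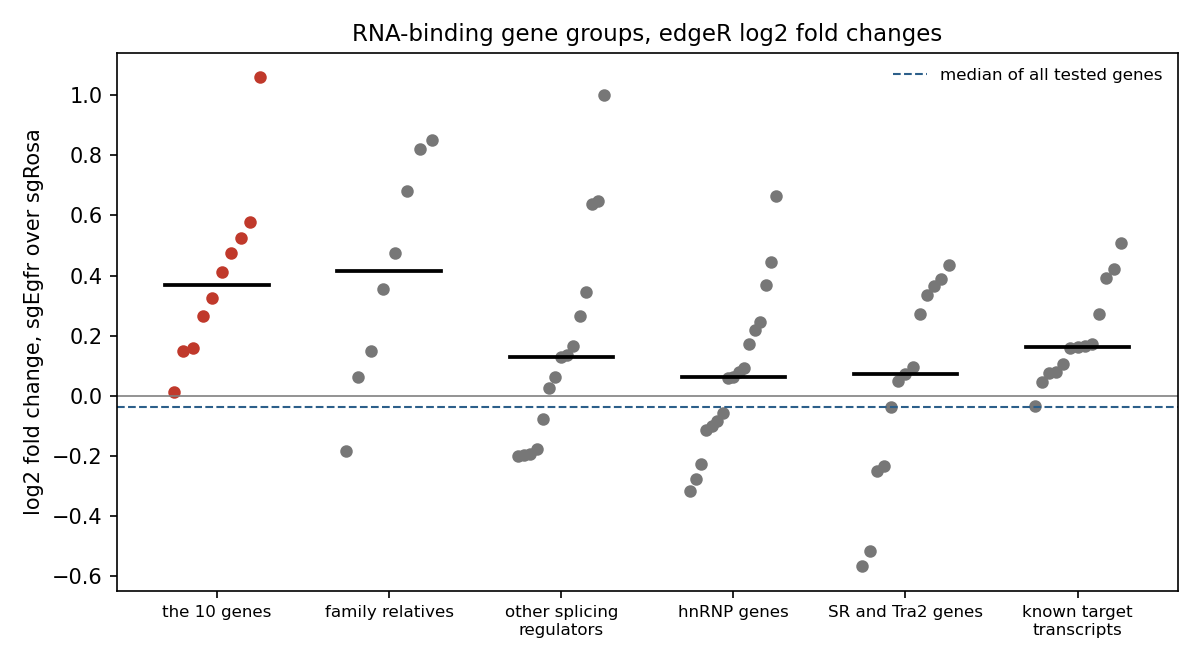
Log2 fold change of sgEgfr over sgRosa (edgeR, 6 libraries) for each tested gene of 6 groups of RNA-binding genes and their targets; black bars are group medians, and the dashed line is the median of all tested genes (-0.04). The medians of the 10 genes (0.37) and of their family relatives (0.42) lie above those of the hnRNP genes (0.06) and the SR and Tra2 genes (0.07). The median of the 16 pan-neuronal markers, not shown, was 0.29. No gene shown passed the adjusted threshold.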

How the data were processed

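Raw counts per gene were deposited by the authors without normalization, as a table for each library and a joint table. For the 6 libraries both held the same counts; 3 other columns of the joint table fitted no sample label and were left out. Per the submitters' processing notes, mm10 was used with STAR 2.7.5c and featureCounts 2.0.1, beside fastp 0.23.2, FastQC 0.11.9, MultiQC 1.11 and edgeR 3.42.4. Options, annotation and strand setting are not given in the sources used here. Libraries were made from 5 ng of RNA, per the labels' protocols; without molecular identifiers, floors cover counting error only.

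Groups were taken from the sample titles. Genes were filtered with filterByExpr (minimum count 10, minimum total 15), scaled by TMM and tested with edgeR 4.0.16 (R 4.3.3; robust quasi-likelihood fit, group term only, Benjamini-Hochberg adjustment, threshold 0.05). An SE is the fold change (log2) over the root of its F value; log2 CPM used a prior count of 2. The common biological coefficient of variation was 0.355. Scripts were tested on simulated data. No pair of replicates agreed within sampling noise (lowest chi-square per degree of freedom 9.53). Alternatives were no filter, a mean count of 20 with 1 CPM in 3 libraries (stricter filter), scaling by RLE or by library size, DESeq2 1.42.0, limma-voom (limma 3.58.1), a replicate block, a pan-neuronal covariate, removal of each library's trend on exon length (lowess span 0.3, lengths for 95.6% of genes), an adjusted p under 0.1, a prior count of 0.5 and leaving out libraries.

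The genes, the lists and the rule for naming were chosen with earlier results of these data known. The rule named all 10 genes, Ptbp1, the 2 genes of smallest p in each list, and the 5 most alike genes other than predicted genes; 1 gene that the rule names is not reported here. Lengths and positions come from GENCODE M21 (GRCm38).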

Additional observations from a re-analysis of the deposited data

How the results depend on the processing

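No call among the 10 genes changed under any alternative, since none passed in any fit. Over all genes, DESeq2 called 33 against 0 by edgeR. The median log2 fold change of the 10 genes was 0.37, and it was 0.86 by limma-voom and 0.28 to 0.93 without single libraries; the cause was not tested. It was 0.47 in the replicate block fit, 0.30 with the length trend removed and 0.82 without sgRosa replicate 3 and sgEgfr replicate 1. Genes whose groups do not overlap numbered 0 of 10, 1 (Elavl4) with the stricter filter against 6.98% of all genes, 0 to 7 without single libraries against 8.48% to 20.7%, and 8 without sgRosa replicate 3 and sgEgfr replicate 1 against 24.7%.

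Of 170 alternative values for the 10 genes, 9 changed sign, most of them for Celf4. The 170 include the setting of an adjusted p under 0.1, which changes only the threshold and cannot change a sign. Celf4 was -0.0034 with library-size scaling, -0.33 with the pan-neuronal covariate and -0.11 once the length trend was taken out, and ranged from -0.19 to 0.40 without single libraries. The covariate gave -0.067 for Rbfox1, -0.077 for Ptbp2 and 0.060 for Ptbp1. Without single libraries Ptbp1 ranged from -0.37 to 0.18, and Ptbp2 minus Ptbp1 from -0.13 to 0.82; Ptbp2 minus Ptbp1 was 0.87 without sgRosa replicate 3 and sgEgfr replicate 1. The mean of the 10 genes minus the pan-neuronal mean differed between groups by -0.03 to 0.08 without single libraries.

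The titles number the replicates without saying whether equal numbers belong together. Deviations from group means correlated at -0.03, 0.48 and 0.28 for numbers 1, 2 and 3. Libraries of unlike number were not compared in this way, so these values do not decide whether the numbers pair the libraries. The replicate block gave 0 calls over all genes, with a log2 fold change of 1.14 for Elavl4 (edgeR adjusted p = 0.490). For differences between paralogues, pairing the libraries leaves the mean difference the same by construction, and the exact sign-flip p cannot go below 0.25 with 3 pairs (0.25 for Elavl4 minus Elavl3). The r of the 5 most alike genes stayed between 0.987 and 0.9999 under 2 other scalings and without single libraries. The lowest count of the 10 genes was 54, for Nova1 in sgRosa replicate 2.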
